A study of Homo sapiens with 4 samples.

Results

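The proteins of the mitochondrial ribosome are described here through the genes that encode them, in 2 human lung cancer cell lines in which CDH3 was silenced. The members are all rows of the expression table whose gene name is MRPL or MRPS followed by a number and at most one letter A, B or C, which leaves out pseudogenes and read-through names. The rule found 78 of the 58174 genes in the table, 49 named for the large subunit (MRPL) and 29 named for the small subunit (MRPS). Total RNA was sequenced 48 h after transfection in 4 groups with 1 library each. These were H1299 with an siRNA against CDH3 (siCDH3), H1299 with a control siRNA (siCTR), HCC827 with siCDH3 and HCC827 with siCTR. H1299 cells derive from a nodal metastasis of a large cell lung carcinoma. HCC827 cells derive from an adenocarcinoma of the lung, carry an activating EGFR deletion and are known for extra copies of the EGFR region. CDH3 encodes P-cadherin, a cell adhesion protein. All 4 libraries came from transfected cells. The labels do not say whether the libraries came from separate cultures, so p-values measure the spread between these libraries only.

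The mitochondrial ribosome translates the few mRNAs encoded in mitochondrial DNA, all of which specify inner-membrane subunits of the respiratory chain and ATP synthase. Its rRNAs come from mitochondrial DNA, whereas every one of its proteins is encoded in the nucleus, made in the cytosol and imported. Some of these proteins descend from bacterial ribosomal proteins and others exist only in mitochondria. In human structures MRPS18A and MRPS30 sit in the large subunit in spite of their names, and MRPS36 has been reassigned to the 2-oxoglutarate dehydrogenase complex; they are kept with the small subunit here because the gene name sets the membership.

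Promoter sequences of the members are shown first because they show a feature found in a minority of members of each subunit. The membership rule did not use it. RefSeq promoter windows of the GRCh38.p14 build, from 250 bases before to 50 bases after an annotated start site, were found for 69 of the 78 members, 42 of the large and 27 of the small subunit. The letters AAGATGGC, the core of the site of the zinc finger factor YY1, were searched on both strands. They were in the windows of 13 of 42 large subunit genes (31.0%) and 8 of 27 small subunit genes (29.6%), against 4.66% of 15842 protein-coding genes and 3.52% of all 27305 genes with a window. Of 21 matches with enough flanking sequence, in 20 members, 15 lay after the start site and 17 read in the direction of the gene. The letters contain ATG, the start codon, and whether a match spans the start of the coding sequence was not tested. The genes compared were not limited to those whose coding sequence starts within the window, nor to genes expressed in these libraries, whereas every member was expressed. The 8 members with the highest mean expression among these are printed as 30 bases on the strand that reads the letters, with the match in capitals.
MRPL51, chr12:6493223-6493252, - strand: gggtaaggcccAAGATGGCtgtcttcgcct
MRPS18B, chr6:30617852-30617881, + strand: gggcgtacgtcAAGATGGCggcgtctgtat
MRPS24, chr7:43869480-43869509, - strand: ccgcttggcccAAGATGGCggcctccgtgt
MRPL20, chr1:1407260-1407289, - strand: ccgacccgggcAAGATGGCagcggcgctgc
MRPL45, chr17:38297170-38297199, + strand: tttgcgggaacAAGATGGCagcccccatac
MRPS18A, chr6:43687764-43687793, - strand: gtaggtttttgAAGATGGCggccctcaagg
MRPL32, chr7:42932143-42932172, - strand: ctcttcgggtaAAGATGGCggagcgcgggt
MRPS10, chr6:42217834-42217863, - strand: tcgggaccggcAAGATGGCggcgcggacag

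Other letters were spread less evenly over the subunits. CCGGAAGT, a site of ETS factors such as GABP, was in the windows of 10 of 42 large subunit genes (23.8%) and 2 of 27 small subunit genes (7.41%), against 6.97% of protein-coding genes. The palindromic site of the respiratory gene activator NRF1, with one free base, was in 7 large subunit genes (16.7%) and 2 small subunit genes (7.41%), against 9.66% of protein-coding genes. The NRF1 palindrome with no free base was in 1 of 69 members (1.45%), against 1.99% of protein-coding genes. The SP1 letters GGGCGG were in 54.8% of large and 70.4% of small subunit genes, against 64.3% of protein-coding genes. A match is a run of letters in a window, not a measured site of binding. The 21 members with the YY1 letters had a median log2 ratio of siCDH3 over siCTR of -0.05 in H1299 and 0.09 in HCC827, and the 48 members without them had -0.02 and 0.03.

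**Figure D1:**
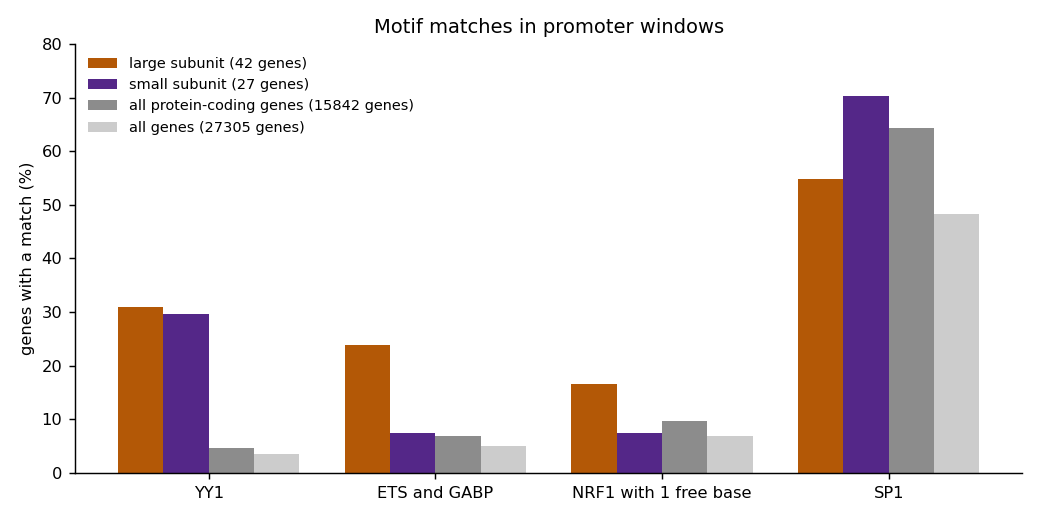
Share of genes (%, vertical axis) whose promoter window holds each motif on either strand, for large and small subunit members, all protein-coding genes and all genes with a window. The YY1 letters were in 31.0% and 29.6% of members of the large and small subunit, against 4.66% of protein-coding genes.

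CDH3 itself was lower with siCDH3 in both lines. It had 0.169 TPM in H1299 siCDH3 and 1.21 TPM in H1299 siCTR. In HCC827 it had 78.8 TPM in siCDH3 and 172.7 TPM in siCTR. TPM is a level scaled to transcript length that sums to the same total in each library. Both H1299 values lie under the 5 TPM filter used below, so the drop in H1299 is near the floor. HCC827 siCDH3 kept 45.6% of the siCTR level. The lines were thus not silenced from comparable levels of CDH3. Of 6 epithelial markers 6 reached 5 TPM in HCC827 and 3 in H1299, and of 4 mesenchymal markers 2 reached it in HCC827 and 4 in H1299. Of these VIM had 8.20 and 9.64 TPM in HCC827 siCDH3 and siCTR and 5060 and 5149 TPM in H1299, whereas FN1 had 119 and 96.8 TPM in HCC827 and 88.1 and 119 TPM in H1299. Of 3 fibroblast markers COL1A1 reached 5 TPM, in HCC827 only (5.87 and 5.58 TPM). Of 3 lung lineage markers (NKX2-1, NAPSA and SFTPC) 2 reached 5 TPM in HCC827 and 0 in H1299. SFTPC was under 5 TPM in all 4 libraries. Of 6 hematopoietic and endothelial markers 0 reached 5 TPM in any library. Mitochondrially encoded mRNAs took 12.8% and 10.1% of TPM in H1299 siCDH3 and siCTR, and 26.4% and 27.6% in HCC827. Read depth is unknown, because TPM keeps no depth.

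All 78 members were expressed in all 4 libraries, between 9.76 and 167 TPM. The large subunit genes summed to 2745 TPM in H1299 siCDH3 and 2614 TPM in H1299 siCTR, and to 2738 TPM in HCC827 siCDH3 and 2708 TPM in HCC827 siCTR. The small subunit genes summed to 1694 and 1820 TPM in the same H1299 libraries, and to 1815 and 1721 TPM in those of HCC827. Median levels of large subunit genes lay between 46.2 and 53.2 TPM and those of small subunit genes between 52.7 and 59.0 TPM. In bulk RNA, fewer cells of a kind and less RNA per cell cannot be told apart. The 2 subunits stood at similar levels per gene, and the highest member was 14.7 to 16.8 times the lowest within a library.

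Levels ranked much the same way within a line. Across the 78 members, Spearman's rho of log2(TPM + 1) was 0.928 between the H1299 libraries and 0.924 between the HCC827 libraries, and 0.781 between the siCTR libraries of the 2 lines. These describe genes of the same libraries, which are not independent replicates.

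In the large subunit, MRPL51, a protein found only in mitochondrial ribosomes, had the highest mean level, with 151 TPM in H1299 siCDH3, 156 in H1299 siCTR, 116 in HCC827 siCDH3 and 117 in HCC827 siCTR. MRPL37, another protein without a bacterial counterpart, had 142, 115, 134 and 133 TPM in the same order, and MRPL4, which lines the exit tunnel, 95.8, 78.3, 167 and 141 TPM. At the low end stood MRPL1, of the L1 stalk, with 16.8, 13.8, 9.92 and 9.82 TPM. MRPL50, also specific to mitochondrial ribosomes, had 10.5, 12.4, 15.8 and 15.5 TPM, and MRPL42, another such protein, had 12.2, 10.1, 11.9 and 22.8 TPM. MRPL12, a stalk protein that also binds the mitochondrial RNA polymerase, was nearly even over the libraries, with 89.8, 90.4, 90.6 and 92.1 TPM.

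In the small subunit the highest mean was that of MRPS18B, with 154 and 165 TPM in H1299 siCDH3 and siCTR and 91.4 and 90.9 TPM in HCC827 siCDH3 and siCTR. It is one of 3 human paralogs of bacterial S18. Its paralog MRPS18A had 79.5 and 76.2 TPM in H1299 and 90.9 and 85.5 TPM in HCC827, and MRPS18C 44.5 and 40.5 TPM in H1299 and 35.2 and 28.4 TPM in HCC827, in siCDH3 and siCTR of each line. The order of the 3 levels was B, A, C in H1299, while B and A were nearly level in HCC827. MRPS15, a bacterial S15 counterpart (115, 116, 135 and 133 TPM in H1299 siCDH3, H1299 siCTR, HCC827 siCDH3 and HCC827 siCTR), and MRPS24, a counterpart of bacterial S3 (112, 115, 131 and 120 TPM), followed. The lowest by mean were MRPS36 (21.0, 18.6, 10.95 and 9.76 TPM), MRPS23 (15.6, 16.5, 15.9 and 15.8 TPM) and MRPS11 (17.3, 15.3, 16.7 and 16.2 TPM).

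**Figure D2:**
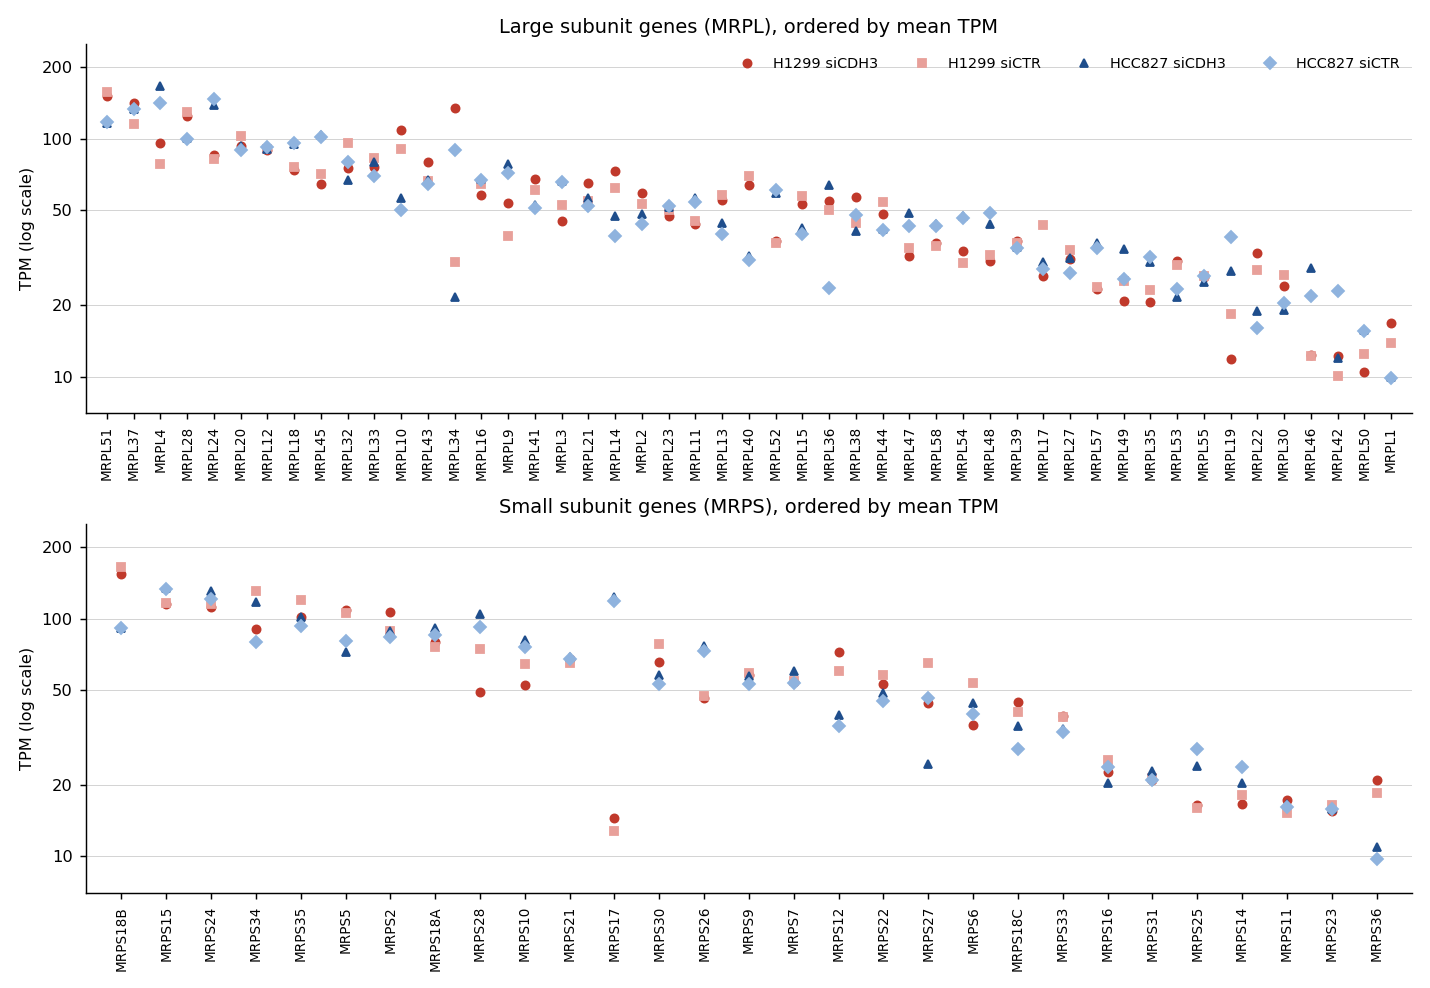
TPM (log scale, vertical axis) of each large subunit gene (top) and small subunit gene (bottom) in the 4 libraries, ordered by mean TPM. MRPL34 and MRPS17 are spread widest, with 21.5 to 135 TPM and 12.7 to 123 TPM.

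siCDH3 was compared with siCTR within each line to ask which genes differ when CDH3 is silenced. With 1 library per group there is no test within a line. A log2 ratio of TPM + 1 of at least 1 in size, 2-fold on that scale, was counted for genes that reached 5 TPM in 1 or both libraries of a line, a filter that all 78 members passed in both lines. In H1299, 1 of 49 large subunit genes and 0 of 29 small subunit genes were past 2-fold, where 2.46% of all 11622 genes were (0.878% higher and 1.58% lower). In HCC827, 2 of 49 large and 0 of 29 small subunit genes were past it, where 1.84% of 11043 genes were (1.01% higher and 0.833% lower). The members' counts were near these shares. Among genes with at least 20 TPM the shares were 2.26% in H1299 and 1.68% in HCC827.

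The subunits as a whole stood close to no difference. In H1299 the median log2 ratio was -0.03 for the large and -0.02 for the small subunit, against -0.11 for all genes. In HCC827 it was 0.03 for the large and 0.09 for the small subunit, against 0.03 for all genes. The sign of the H1299 medians turned with scaling, to 0.08 for each subunit with the median of all genes set to 0 and to 0.02 for each with TPM over nuclear genes, and that of the large subunit in HCC827 turned to -0.01 with TPM over nuclear genes. Log2 ratios of at least 0.25 in size were found in 19 of 78 members in H1299 and 11 of 78 in HCC827, where 42.5% and 24.7% of all genes had them. Those of at least 0.5 were found in 7 of 78 members in H1299 and 5 of 78 in HCC827, where 14.9% and 8.13% of all genes had them. The interquartile range of the log2 ratios was 0.27 over the members and 0.38 over all genes in H1299, and 0.14 and 0.25 in HCC827. All genes here include genes near 5 TPM, whereas no member was under 9.76 TPM, so these shares and ranges compare sets of unlike level. In H1299 the genes at 0.25 or more in size were 1372 higher and 3563 lower, so that share also holds the all-gene shift of -0.11. Whether the members differ from genes of their own level was not tested. In H1299 the log2 ratio went with the GC content of the transcripts, with Pearson's r of 0.28 across the members and 0.29 across 11610 genes; with a trend on length and GC removed the H1299 medians were -0.04 and -0.03.

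MRPL34 had the largest difference of all 78 members in both lines, and the differences had opposite signs. It encodes the mitochondrial counterpart of bacterial L34, a small rRNA-binding protein of the large subunit. It had 135 TPM in H1299 siCDH3 and 30.4 TPM in H1299 siCTR, 4.43-fold higher, a log2 ratio of 2.11. It had 21.5 TPM in HCC827 siCDH3 and 89.4 TPM in HCC827 siCTR, 4.15-fold lower, a log2 ratio of -2.01. H1299 siCDH3 and HCC827 siCTR were thus the high libraries, and the order of the lines was reversed between the siRNAs, with HCC827 over H1299 at 1.53 in siCTR and -2.59 in siCDH3. Leaving MRPL34 out, the large subunit summed to 2611 and 2584 TPM in H1299 siCDH3 and siCTR and to 2717 and 2619 TPM in HCC827 siCDH3 and siCTR.

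Genes beside MRPL34 did not show this pattern. ABHD8, on the other strand, which shares exonic sequence with MRPL34, had 30.8 and 30.5 TPM in H1299 siCDH3 and siCTR and 16.4 and 16.6 TPM in HCC827. DDA1, on its other side, had 29.9 and 29.5 TPM in H1299 and 46.3 and 37.7 TPM in HCC827. Because the strandedness of the libraries is not given in the sources used here, reads of MRPL34 and ABHD8 may be divided between them, and the TPM of MRPL34 is uncertain to that extent. RefSeq gives MRPL34 4 promoter windows. The one farthest upstream and the one farthest downstream are printed, with the window of MRPL36, the other member past 2-fold, and the motif matches in capitals. The upstream MRPL34 window holds 3 matches to the SP1 letters, and the downstream one 2 to the NRF1 letters with one free base. The MRPL36 window holds 1 match to those NRF1 letters and 1 to the YY1 letters, which read on the other strand.
MRPL34, chr19:17292323-17292622, + strand: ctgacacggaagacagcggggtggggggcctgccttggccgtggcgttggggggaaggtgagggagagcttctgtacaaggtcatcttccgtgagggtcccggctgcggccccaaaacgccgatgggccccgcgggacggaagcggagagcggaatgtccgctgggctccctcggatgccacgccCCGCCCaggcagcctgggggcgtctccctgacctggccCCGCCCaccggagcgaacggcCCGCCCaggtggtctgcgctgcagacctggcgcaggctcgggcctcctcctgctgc
MRPL34, chr19:17305622-17305921, + strand: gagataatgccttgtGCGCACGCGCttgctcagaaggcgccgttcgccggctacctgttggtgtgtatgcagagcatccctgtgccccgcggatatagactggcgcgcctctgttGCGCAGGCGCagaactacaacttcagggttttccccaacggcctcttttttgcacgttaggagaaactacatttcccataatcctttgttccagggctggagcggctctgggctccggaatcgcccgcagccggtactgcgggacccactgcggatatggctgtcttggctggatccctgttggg
MRPL36, chr5:1799788-1800087, - strand: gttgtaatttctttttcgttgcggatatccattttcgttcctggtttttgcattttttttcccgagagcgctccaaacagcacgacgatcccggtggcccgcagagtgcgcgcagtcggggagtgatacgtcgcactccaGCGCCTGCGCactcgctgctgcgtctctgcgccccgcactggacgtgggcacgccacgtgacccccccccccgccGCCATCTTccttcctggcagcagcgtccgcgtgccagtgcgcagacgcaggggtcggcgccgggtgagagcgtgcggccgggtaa

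MRPL36, the counterpart of bacterial L36 and one of the smallest ribosomal proteins, was past 2-fold in HCC827 and not in H1299. It had 63.6 TPM in HCC827 siCDH3 and 23.6 TPM in HCC827 siCTR, a log2 ratio of 1.39. In H1299 it had 54.6 TPM in siCDH3 and 49.9 TPM in siCTR, a log2 ratio of 0.13. The HCC827 siCTR library was the low one, and the other 3 lay between 49.9 and 63.6 TPM. NDUFS6, the complex I subunit gene next to it, had 52.2 and 49.6 TPM in HCC827 siCDH3 and siCTR, and 49.3 and 49.2 TPM in H1299. LPCAT1, on the other side, had 95.9 and 85.1 TPM in HCC827. In H1299, where MRPL36 differed little, LPCAT1 had 16.7 TPM in siCDH3 and 34.3 TPM in siCTR, a log2 ratio of -0.996.

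**Figure D3:**
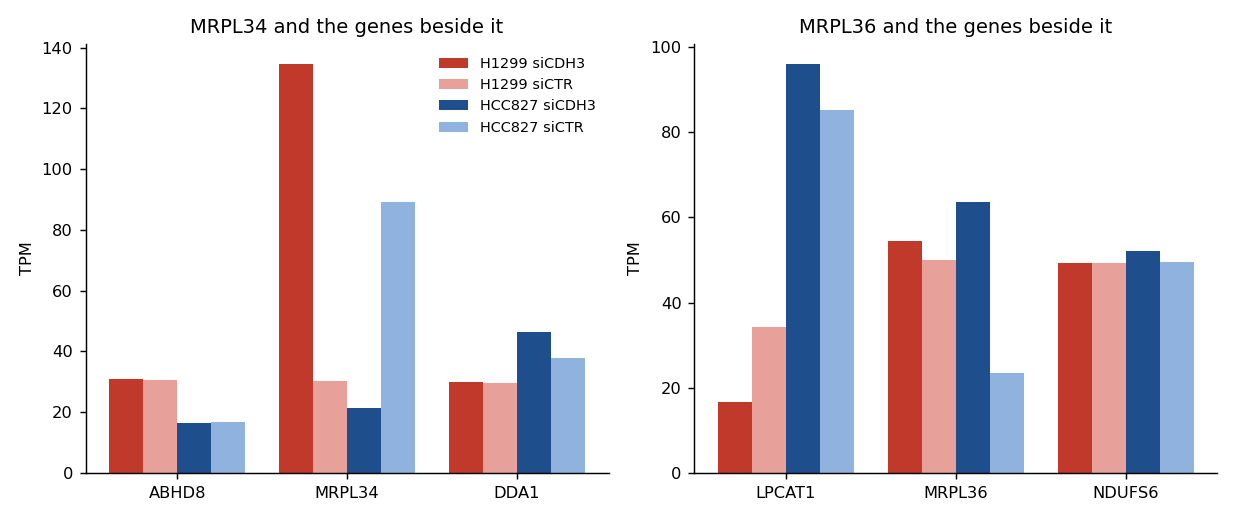
TPM (vertical axis, from 0) of MRPL34 and MRPL36 and of the protein-coding gene on each side, in the 4 libraries. MRPL34 was at 135 and 89.4 TPM in H1299 siCDH3 and HCC827 siCTR and at 30.4 and 21.5 TPM in the other libraries, while ABHD8 differed little within a line.

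The remaining members of the large subunit had smaller ratios. In H1299 the lowest were MRPL17, a bacterial L17 counterpart (log2 ratio -0.69, 26.5 TPM in siCDH3 and 43.5 in siCTR), MRPL19, a bacterial L19 counterpart (-0.59, 11.9 and 18.4 TPM) and MRPL32 (-0.34, 75.6 and 95.8 TPM). MRPL32 is known as a protein that the mitochondrial m-AAA protease must cut before it joins the ribosome. After MRPL34, the highest in H1299 were MRPL9, a bacterial L9 counterpart (0.45, 53.5 TPM in siCDH3 and 38.9 in siCTR) and the mitochondria-specific MRPL38 (0.37, 57.1 and 44.0 TPM). In HCC827, MRPL42 followed MRPL34 at the low end (-0.88, 11.9 TPM in siCDH3 and 22.8 in siCTR), before MRPL19 (-0.46, 27.8 and 38.6 TPM). After MRPL36 the highest were the mitochondria-specific MRPL49 (0.40, 34.4 TPM in siCDH3 and 25.8 in siCTR) and MRPL46 (0.38, 28.6 and 21.8 TPM).

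In the small subunit the lowest H1299 ratios were those of the RNA-binding protein gene MRPS28 (log2 ratio -0.60, 48.9 TPM in siCDH3 and 74.4 in siCTR), MRPS6 (-0.56, 35.8 and 53.5 TPM) and MRPS27 (-0.55, 44.1 and 64.9 TPM), an RNA-binding pentatricopeptide repeat protein. The mitochondria-specific MRPS34 was close to these in H1299 (-0.53, 90.3 TPM in siCDH3 and 131 in siCTR) and was the highest in HCC827 (0.55, 118 and 79.7 TPM). The highest in H1299 were MRPS2 (0.26, 106 TPM in siCDH3 and 88.3 in siCTR), MRPS12, a protein of the decoding centre (0.26, 72.3 and 60.2 TPM), and MRPS17 (0.18, 14.6 and 12.7 TPM). In HCC827, MRPS27 was lowest (-0.90, 24.5 TPM in siCDH3 and 46.5 in siCTR), followed by MRPS14 (-0.22, 20.3 and 23.8 TPM) and MRPS25 (-0.22, 24.0 and 28.2 TPM). MRPS18C (0.30, 35.2 TPM in siCDH3 and 28.4 in siCTR) and MRPS28 (0.17, 104 and 92.4 TPM) followed MRPS34 at the high end. MRPS6 shares exonic sequence with the transporter gene SLC5A3, which had 3.74 and 7.39 TPM in H1299 siCDH3 and siCTR, so its TPM is uncertain. Of the 78 members, 29 share exonic sequence with another gene that reached 5 TPM.

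The read-through gene URGCP-MRPS24 had 5.43 TPM in H1299 siCDH3 and 0.0556 TPM in H1299 siCTR, and 0.144 and 0.388 TPM in HCC827 siCDH3 and siCTR. MRPS24 itself had 112 and 115 TPM in H1299 and 131 and 120 TPM in HCC827. Reads of the shared exons can be given to either name. Of 67 pseudogene rows named after members, 2 reached 5 TPM, among them MRPL45P2 with 17.9 and 18.996 TPM in H1299 and 7.63 and 7.87 TPM in HCC827, beside 64.4 and 71.1 TPM and 104 and 101 TPM of MRPL45.

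Both lines were fitted together with limma on log2(TPM + 1) of 12941 genes, with the line as a block, to ask which members moved alike in the 2 lines. The spread in this fit is the difference between the lines' responses, with 1 residual degree of freedom per gene. With Benjamini-Hochberg adjustment 0 of 78 members passed an adjusted p of 0.05, where 1 of 12941 genes (0.00773%) did. At an unadjusted p under 0.05 limma gave 2 of 78 members, where it gave 4.49% of all genes. These were MRPS27 (log2 difference -0.72, SE 0.17, adjusted p 0.933) and MRPL19 (-0.52, SE 0.15, adjusted p 0.950), each lower in siCDH3 in 2 of 2 lines. MRPL34, whose ratios had opposite signs, had a log2 difference of 0.05 with an SE of 0.96. Across the 78 members the log2 ratios of the lines had a Pearson's r of -0.42, and 0.12 without MRPL34; the comparisons share no library.

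**Figure D4:**
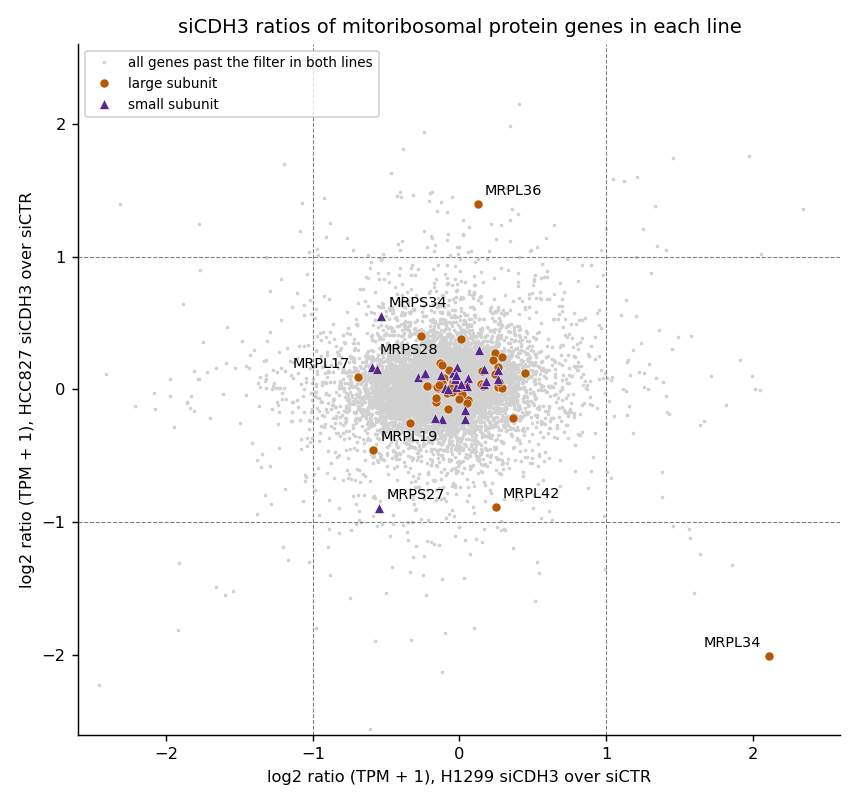
Log2 ratio of TPM + 1, siCDH3 over siCTR, in H1299 (horizontal axis) and HCC827 (vertical axis) for large subunit genes (circles), small subunit genes (triangles) and all genes past the filter in both lines (grey, those within 2.6 of 0 shown). Dashed lines mark 2-fold; MRPL34 lies at 2.11 and -2.01 and MRPL36 at 0.13 and 1.39, and the other members lie inside the lines.

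The interquartile range of the members' log2 ratios was wider between the lines, 0.68 for HCC827 over H1299 in siCTR, than between siRNAs within a line. In the siCTR libraries 5 of 49 large and 1 of 29 small subunit genes were at least 2-fold apart between HCC827 and H1299, where 41.2% of all 12601 genes were. In the siCDH3 libraries the counts were 3 of 49 and 2 of 29, where 39.4% of 12542 genes were. Here and in the line fit below, the sets of all genes include genes, such as CDH1, that reached 5 TPM in 1 line only. Every member reached 5 TPM in all 4 libraries, so members and all genes are unlike sets in these comparisons. The members' median log2 ratio of HCC827 over H1299 was -0.03 in siCTR and that of all genes -0.39, and the interquartile range over all genes was 1.44. With the median of all genes set to 0 the siCTR count was 11 of 78, all higher in HCC827, where 37.4% of genes were 2-fold apart. The 78 members took 0.443% of all TPM in each siCTR library, where mitochondrially encoded mRNAs took 27.6% in HCC827 and 10.1% in H1299. Of TPM outside mitochondrially encoded genes, the members' share was 0.694% for HCC827 siCTR and 0.513% for H1299 siCTR.

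In the limma fit of line, with the siRNA as a block, 24 of 78 members passed an adjusted p of 0.05, 14 higher and 10 lower in HCC827, where 62.9% of 12941 genes passed, 21.5% higher and 41.3% lower. Of the large subunit 11 were higher and 5 lower, and of the small subunit 3 were higher and 5 lower. The split moved with scaling, for the members and for all genes. With TPM over nuclear genes 32 members passed, 29 higher and 3 lower, where 61.5% of genes passed, 33.7% higher and 27.8% lower. With the median of all genes set to 0, 30 members passed, 24 higher and 6 lower, where 62.6% of genes passed, 28.3% higher and 34.4% lower. The 14 higher members passed under each of these and under quantile normalization. Of the 10 lower ones, MRPL40, MRPL10 and MRPS36 were called lower in every one. Each of these scalings shifted HCC827 upward against H1299. In siCTR the all-gene median log2 ratio was -0.39 as deposited, 0.06 with TPM over nuclear genes and -0.08 with quantile normalization. That shift favours higher calls and works against lower ones, so it is no check of the higher calls. The members' count was 8 without the HCC827 siCDH3 library, where 37.4% of genes passed, and 4 without HCC827 siCTR, where 37.1% passed, each fitted without the block, where the lone library of a line is assumed to vary like the others.

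MRPS17, the mitochondrial counterpart of bacterial S17, stood farthest apart between the lines. It had 123 and 118 TPM in HCC827 siCDH3 and siCTR, and 14.6 and 12.7 TPM in H1299 siCDH3 and siCTR. HCC827 was higher than H1299 by 9.27-fold in siCTR and 8.48-fold in siCDH3 (limma log2 difference 3.06, SE 0.15, adjusted p 0.000156), and the libraries of the lines did not overlap. It was the lowest small subunit gene in both H1299 libraries. NIPSNAP2, which lies next to MRPS17 and shares exonic sequence with it on the same strand, had 144 and 150 TPM in HCC827 siCDH3 and siCTR and 26.5 and 27.9 TPM in H1299, so that reads may be divided between them.

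The genes around MRPS17 on chromosome 7 were higher in HCC827 as well. Of the 8 protein-coding genes on each side, 9 of 16 had at least 5 TPM in H1299 siCTR itself. These 9 were higher in HCC827 siCTR by 2.73- to 22.5-fold, where 5.89% of all 11329 genes with that level in H1299 siCTR were at least 2-fold higher. ZNF713 reached 5 TPM in HCC827 only, with 7.10 and 7.02 TPM in HCC827 siCDH3 and siCTR and 1.53 and 2.32 TPM in H1299. EGFR, which lies among them, had 504 and 493 TPM in HCC827 siCDH3 and siCTR and 23.9 and 26.0 TPM in H1299. SEC61G, a subunit of the protein translocon, had 2245 and 2456 TPM in HCC827 and 179 and 109 TPM in H1299. On the other side, PSPH had 71.0 and 64.7 TPM in HCC827 and 17.8 and 23.7 TPM in H1299, and CHCHD2, a mitochondrial intermembrane space protein gene, 1359 and 1431 TPM in HCC827 and 326 and 356 TPM in H1299. Gene copy number was not measured, and its part in these levels was not tested. The promoter window of MRPS17 is printed with its 2 matches to the SP1 letters in capitals.
MRPS17, chr7:55951627-55951926, + strand: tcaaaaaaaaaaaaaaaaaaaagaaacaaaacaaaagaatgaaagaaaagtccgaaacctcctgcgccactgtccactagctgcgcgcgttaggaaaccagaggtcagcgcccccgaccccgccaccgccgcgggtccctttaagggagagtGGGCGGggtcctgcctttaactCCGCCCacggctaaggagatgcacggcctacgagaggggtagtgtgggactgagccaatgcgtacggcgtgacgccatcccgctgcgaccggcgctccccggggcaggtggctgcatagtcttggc

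**Figure D5:**
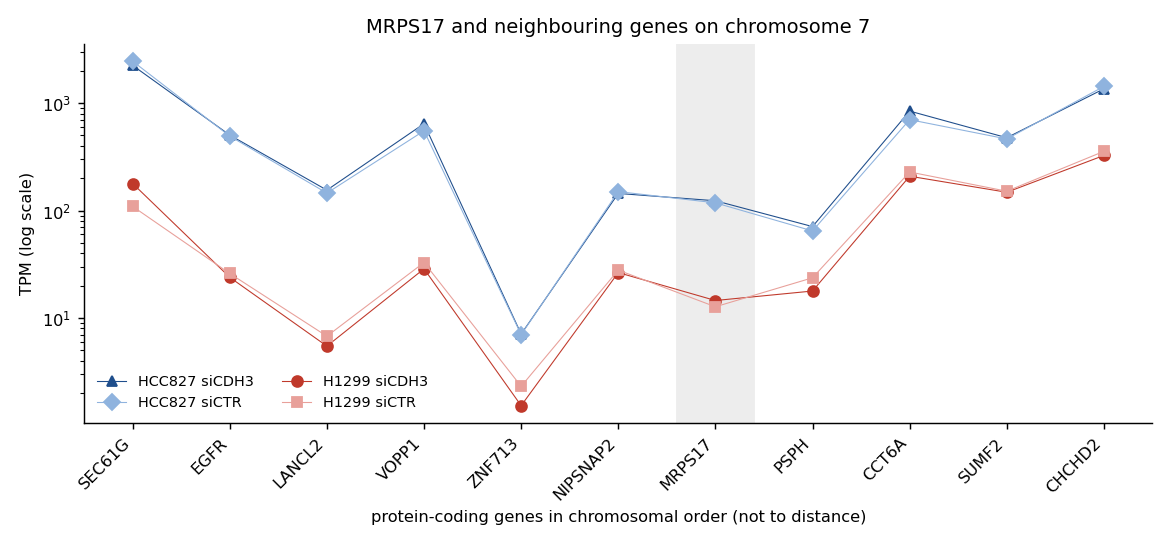
TPM (log scale, vertical axis) of MRPS17 (shaded) and of the neighbouring protein-coding genes that reached 5 TPM, in chromosomal order and not to distance, in HCC827 and H1299. Each of these genes was higher in both HCC827 libraries than in both H1299 libraries, MRPS17 at 123 and 118 TPM against 14.6 and 12.7 TPM.

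After MRPS17, the members higher in HCC827 were led by MRPL19 (27.8 and 38.6 TPM in HCC827 siCDH3 and siCTR, 11.9 and 18.4 TPM in H1299; limma log2 difference 1.10, SE 0.15, adjusted p 0.00340). MRPL46 had 28.6 and 21.8 TPM in HCC827 and 12.3 and 12.2 TPM in H1299. MRPL4 and MRPL24, a protein near the tunnel exit, also passed, with 167 and 141 TPM and 139 and 147 TPM in HCC827, and 95.8 and 78.3 TPM and 85.4 and 81.9 TPM in H1299. In the small subunit MRPS26 (76.9 and 72.9 TPM in HCC827, 46.3 and 47.4 TPM in H1299) and MRPS25 (24.0 and 28.2 TPM in HCC827, 16.4 and 15.9 TPM in H1299) passed with MRPS17.

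Lower in HCC827 was MRPL40, whose gene lies in the region lost in 22q11 deletion syndrome, with 32.0 and 31.0 TPM in HCC827 siCDH3 and siCTR and 64.0 and 69.5 TPM in H1299 (log2 difference -1.06, SE 0.15, limma adjusted p 0.00398). MRPL10, of the ribosomal stalk, had 56.5 and 50.3 TPM in HCC827 and 108 and 90.2 TPM in H1299. MRPS36 had 10.95 and 9.76 TPM in HCC827 and 21.0 and 18.6 TPM in H1299. MRPS12 (39.2 and 35.4 TPM in HCC827, 72.3 and 60.2 TPM in H1299), MRPS18B and MRPL22 (18.8 and 16.0 TPM in HCC827, 33.0 and 28.0 TPM in H1299) were called lower on TPM as deposited and not with TPM over nuclear genes. Of the 10 members called lower as deposited, only MRPL40, MRPL10 and MRPS36 kept the call with TPM over nuclear genes. MRPL34 and MRPL42 were 2-fold higher and MRPL36 was 2-fold lower in HCC827 in the siCTR libraries, but in the siCDH3 libraries their log2 ratios were -2.59, -0.03 and 0.22.

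Other genes of mitochondrial translation were taken from lists of assembly factors, translation factors and enzymes. In H1299, 1 of the 64 genes of these lists past the filter was at least 2-fold apart (1.56%), and in HCC827 0 of 66 were, near the 2.46% and 1.84% of all genes. It was MTERF4, which guides an rRNA methyltransferase to the ribosome, with 10.4 TPM in H1299 siCDH3 and 25.6 TPM in H1299 siCTR, a log2 ratio of -1.22. In HCC827 it had 13.4 TPM in siCDH3 and 7.13 TPM in siCTR, a log2 ratio of 0.83. GTPBP10, an assembly GTPase of the large subunit, had 10.7 TPM in H1299 siCDH3 and 22.2 TPM in H1299 siCTR (-0.98), and 17.3 TPM in HCC827 siCDH3 and 29.9 TPM in HCC827 siCTR (-0.76).

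By list, 6 mitoribosomal proteins with other names had a median log2 ratio of -0.02 for H1299 and one of 0.05 for HCC827. In H1299 the highest were GADD45GIP1 (0.18) and AURKAIP1 (0.17) and the lowest CHCHD1 (-0.21) and PTCD3 (-0.13), an RNA-binding pentatricopeptide repeat protein. In HCC827, DAP3, the GTP-binding protein of the small subunit, was highest, with 127 TPM in siCDH3 and 101 TPM in siCTR (0.33), followed by GADD45GIP1 (0.14), and AURKAIP1 (-0.02) and CHCHD1 (0.03) were lowest.

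The 12 translation factors had medians of -0.27 in H1299 and 0.09 in HCC827, against -0.11 and 0.03 for all genes. In H1299 the initiation factor gene MTIF3 (0.13) and the elongation factor partner TSFM (0.07) were highest, and the release factor gene MTRF1L (-0.41) and the elongation factor gene GFM1 (-0.39) were lowest. In HCC827, TSFM (0.45) and C12orf65 (0.28), a gene of the release factor family, were highest, and MTRF1L (-0.15) and GFM2 (-0.12), a ribosome recycling factor, were lowest. MTRF1L was thus the lowest of this list in both lines. The 18 assembly and rRNA modification genes past the filter in H1299 had a median of 0.06, and the 19 in HCC827 one of 0.05. MALSU1, a factor of late large subunit assembly, was highest in H1299 (0.72), followed by ERAL1, a chaperone of the small subunit rRNA (0.65). In HCC827, RPUSD4, a pseudouridine synthase, was second lowest (-0.50) after GTPBP10, and MALSU1 was at 0.41.

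The mitochondrial aminoacyl-tRNA synthetases, which charge the tRNAs the ribosome uses, had medians of -0.13 over 16 genes in H1299 and 0.04 over 17 in HCC827. In H1299, SARS2 (0.25) and PARS2 (0.16) were highest and NARS2 (-0.55) was lowest. In HCC827, NARS2 (0.31) and EARS2 (0.25) were highest and SARS2 (-0.37) and FARS2 (-0.32) lowest, so NARS2 and SARS2 changed ends between the lines. SARS2 shares exonic sequence with MRPS12 on the other strand. The 12 genes of mitochondrial transcription and RNA handling had medians of -0.02 in H1299 and 0.04 in HCC827. TFAM, which packs mitochondrial DNA and starts its transcription, was the lowest of them in both lines, with 11.2 TPM in H1299 siCDH3 and 20.2 TPM in H1299 siCTR (-0.80), and 15.0 TPM in HCC827 siCDH3 and 17.3 TPM in HCC827 siCTR (-0.19). TRMT10C, an RNase P subunit, was next in H1299 (-0.42), and PNPT1, an RNA-degrading exonuclease, in HCC827 (-0.18). KIAA0391 (0.17) and PNPT1 (0.11) were highest in H1299, and HSD17B10 (0.49) and LRPPRC (0.26), which stabilises mitochondrial mRNAs, in HCC827. The rRNA of the large subunit, MT-RNR2, had 10074 and 9547 TPM in H1299 siCDH3 and siCTR and 32386 and 33856 TPM in HCC827. That of the small subunit, MT-RNR1, had 4161 and 3643 TPM in H1299 and 8524 and 8833 TPM in HCC827. Both rRNAs were thus higher in HCC827 libraries. How rRNA was treated in library preparation is not described here, so these values need not equal the rRNA content of the cells.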

How the data were processed

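Total RNA of 4 libraries, 1 per line and siRNA, was sequenced. The authors deposited a table of TPM per gene; the genome build named is hg19, per the submitters' processing notes. The names of the aligner and counter, the annotation release and the strandedness were not given in the sources used here. TPM keeps no depth, so no counting interval can be given.

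Ratios are differences of log2(TPM + 1), which understate changes of low genes, for genes with at least 5 TPM in 1 or more of the 2 libraries compared. With 1 library per group a 2-fold size rule replaced a test. limma 3.58.1 (R 4.3.3) was fitted to 12941 genes with line and siRNA as terms, with Benjamini-Hochberg adjustment at 0.05. The code was also run on simulated data in which both lines responded alike. That run does not measure power where the responses of the lines differ. Exon overlaps, lengths, GC content and gene order came from GENCODE 29, and promoter windows from RefSeq (GRCh38.p14); neither is the build of the table, so coordinates are given for those windows only. Alternatives were other pseudocounts, filters, scalings, fold rules, a trend, no block and each library left out.

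Members named with values were those past 2-fold, the 3 highest and 3 lowest per subunit by mean TPM and by each ratio, and the MRPS18 paralogs; of related lists, genes past 2-fold and the 2 highest and 2 lowest per line. A gene that this rule picks is not reported here. MRPL12, MRPL45, MRPL24, MRPL22 and the printed promoters were chosen after their values were seen. The members and lists were chosen with earlier results of these data known.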

Additional observations from a re-analysis of the deposited data

Results flagged for a closer look

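MRPL34 had a log2 ratio of siCDH3 over siCTR of 2.11 in H1299 and of -2.01 in HCC827, which are opposite directions. With 1 library per group the difference between the lines was not tested. The neighbouring genes ABHD8 and DDA1 had log2 ratios of 0.01 and 0.02 in H1299 and of -0.02 and 0.29 in HCC827.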

How the results depend on the processing

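Differences within a line rest on 1 library per group, with no replicate check and at unknown depth. Of the values that answer a comparison, 87 alternatives stayed within 0.1 (log2, medians) or 1.5 times (counts) and 14 moved; of single members, 71 kept their side of the threshold, 10 no longer passed it and 0 reversed. In what follows the brackets give the share of all genes past the same rule. Members past the size rule went to 4 in H1299 (10.3%) and 4 in HCC827 (5.89%) at 1.5-fold, and to 1 in HCC827 at 4-fold (0.299%). The H1299 large subunit median was 0.0801 with the median of all genes set to 0 and 0.0844 with quantile normalization, and the small subunit median 0.0823 with the median set to 0. Between the siCTR libraries, 6 members past 2-fold (41.2%) became 3 with a pseudocount of 5 (31.2%), 11 with the median set to 0 (37.4%), 13 with TPM over nuclear genes (39%), 10 with quantile normalization (37.5%), 22 at 1.5-fold (61.8%) and 1 at 4-fold (17.5%). limma called 0 members for siCDH3 in each alternative that kept all 4 libraries, where it called 0 or 1 of all genes. So few calls over all genes leave little room for a member, so these counts are no check of the members. At an unadjusted p under 0.05 the limma fit as reported gave 2 of 78 (4.49%). For the line its 24 calls became 4 to 21 with a library left out, 8 without HCC827 siCDH3 (37.4%) and 4 without HCC827 siCTR (37.1%). Without the replicate block, the pairing of libraries by line or siRNA, limma called 0 members for siCDH3 (0%) and 30 for the line (63.7%). In that siCDH3 fit the difference between the lines enters the spread, and limma gave 0.155% of all genes an unadjusted p under 0.05. The cause of these shifts was not tested.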
